A study of Oryza sativa with 24 samples.

Results

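The genes described here are those of the rice panicle whose RNA was at least 2-fold higher at meiosis (stage 6) than when pollen mother cells form (stage 5), and then stayed within a 2-fold band while pollen filled (stage 7) and matured (stage 8). They were selected on measured values: the mean CPM (a gene's count divided by the total of its library and multiplied by 1000000) of each stage over both genotypes, with 0.5 added. A gene was kept when its lowest value over stages 6 to 8 was at least 3, its highest was less than 2 times its lowest, and the lowest was at least 2 times the stage 5 value. This ratio of the lowest later value to the stage 5 value is called the rise here. The rule allowed up to 200 genes and found 197 of 36099 identifiers, of which 29979 had a count. All 197 passed the filter on low counts.

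Young panicles of the indica rice cultivar IR64 (Oryza sativa) were collected at 4 stages of development from wild-type plants and from a tps2/tps3/tps6 triple mutant, made by gene editing in that same cultivar. All plants were grown in pots in growth chambers. Of 24 columns, 3 pairs held identical values under both genotypes. Each such pair was taken as 1 library of known stage and unresolved genotype, written here as a shared library (stage 6 replicate 3 and stage 7 replicates 2 and 3). Stage levels thus rest on 21 libraries. Genotype comparisons rest on 18, with 3 per genotype at stages 5 and 8, 2 at stage 6 and 1 at stage 7. The design text describes the replicates as biological and independent, and the sources used here do not say how many edited lines or plants the mutant samples came from. Total counts ran from 11398861 to 15860931 per library.

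A young panicle holds anthers together with glumes, ovaries and branches. In the anther, pollen mother cells enter meiosis inside a nurse layer, the tapetum, which feeds the microspores and supplies material for the pollen wall before it degenerates. RNA that appears at meiosis and persists can come from the germ cells, from the anther wall or from other floral organs, and in whole panicles more cells of a type and more RNA per cell cannot be told apart. Class II trehalose phosphate synthases, the proteins encoded by the edited genes, belong to the trehalose 6-phosphate pathway, which links sugar status to growth in plants. The deposited identifiers were not paired with gene names here, and 0 of the 197 matched the reference table, so these genes are described by identifier and level. The tissue markers and the edited genes were likewise not analysed by name, and no sequences are shown.

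The 197 genes together took 0.229% to 0.338% of all counts in the 6 stage 5 libraries and 0.644% to 0.817% in the 5 stage 6 libraries. At stage 7 the share was 1.03% to 1.14% in 4 libraries, and at stage 8 it was 0.642% to 0.973% in 6. The median gene stood at 4.18 CPM at stage 5, 13.3 CPM at stage 6, 20.4 CPM at stage 7 and 17.4 CPM at stage 8. These levels are what the rule selected on, so they describe the genes and carry no test.

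**Figure D1:**
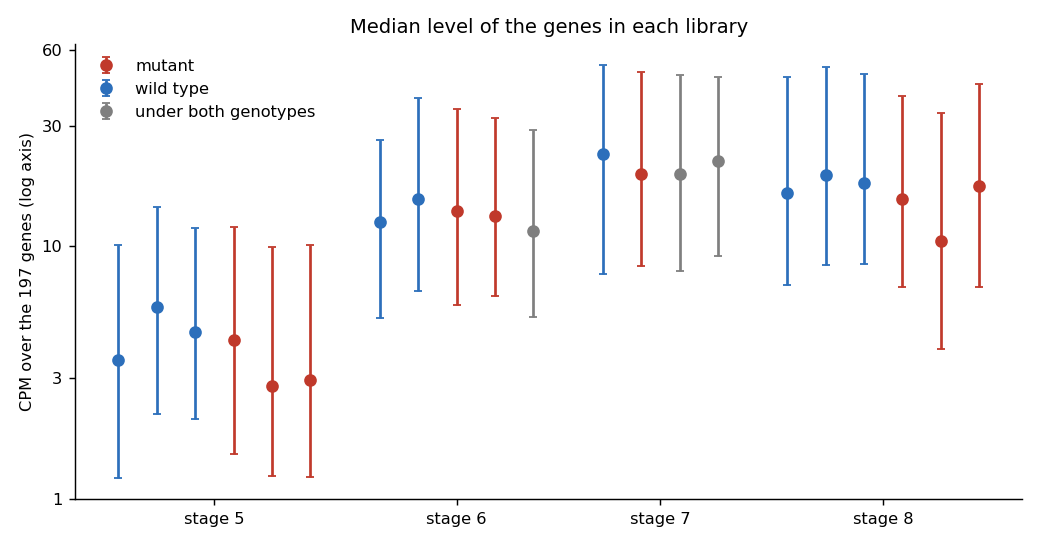
Each point is the median CPM of the 197 genes in 1 library (log axis) and its bar spans the quartiles over genes, with libraries grouped by stage and coloured by genotype. Stage 5 medians lie between 2.81 and 5.74 CPM, and the lowest later library is mutant stage 8 replicate 2 at 10.5 CPM.

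Within the band the genes were not flat. Stage 7 gave the highest mean for 145 of the 197, stage 8 for 43 and stage 6 for 9. Stage 6 gave the lowest of the 3 later means for 147. The most frequent order, with stage 6 lowest, stage 8 between and stage 7 highest, held for 109 genes, while 38 had means that increased from stage 6 to 7 to 8. With 0.5 CPM added, the ratio of the highest to the lowest later mean had a median of 1.68, and the flattest gene had 1.03. Without the added value, the means of a scarce gene can differ by more than 2-fold. OsIR64_06g0000190, the last gene inside the band, had 4.11 CPM at stage 6 and 8.72 CPM at stage 7. With the band narrowed to a ratio under 1.5, 54 genes were left.

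**Figure D2:**
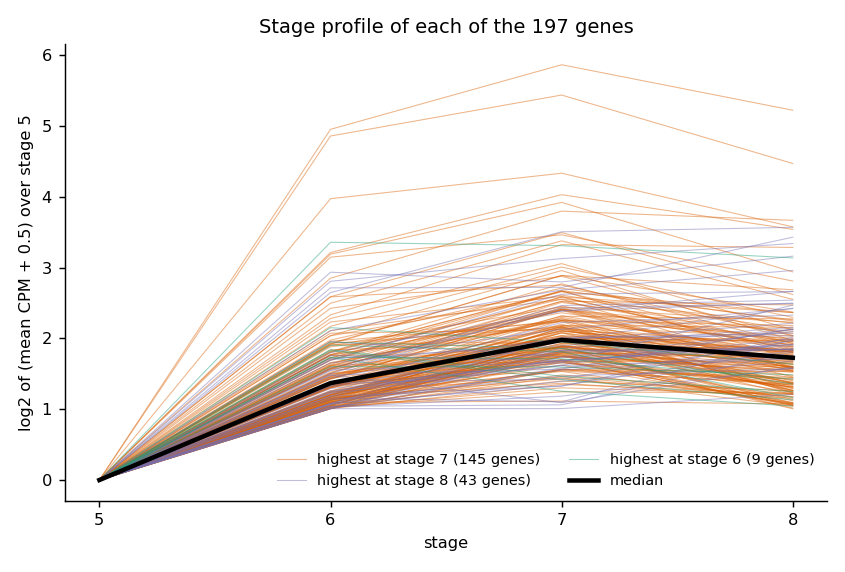
Each thin line is 1 of the 197 genes, drawn as the log2 ratio of its stage mean (CPM + 0.5) to its stage 5 mean against stage, coloured by the stage of its highest later mean, and the thick line is the median. Most lines crest at stage 7, where 145 genes have their highest mean, and 3 lines with a rise above 10 stand apart from the rest.

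Most rises were modest. The median rise was 2.49, the quartiles were 2.17 and 3.11, and 56 genes reached 3, 15 reached 5 and 3 reached 10. The last gene inside the threshold, OsIR64_03g0003580, had a rise of 2.01 (8.35 CPM at stage 5 and 17.3 CPM at stage 6), and the first one outside, OsIR64_04g0030690, had 1.99. The upper edge of the band excluded 653 further genes that met the other conditions.

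The genes started from unequal levels. At stage 5, 22 genes had a mean under 1 CPM and a median of 4.16 CPM at stage 6. Another 119 lay from 1 to 10 CPM, with a median of 2.93 CPM at stage 5 and 9.11 CPM at stage 6. The other 56 genes were already expressed at 10 CPM or more, with medians of 22.0 CPM and 60.2 CPM. Only 1 of the 197 had no count in any stage 5 library, and all others had counts there. Later levels were unequal too: 64 genes averaged under 10 CPM over stages 6 to 8, 22 averaged over 100 CPM, and the 10 highest made up 34.4% of the summed level.

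The gene with no stage 5 count was OsIR64_03g0026900, which had the highest rise of all. It had 23.1 and 10.5 CPM in the mutant stage 6 libraries, 19.3 and 16.1 CPM in the wild-type ones and 6.12 CPM in the shared one. At stage 7 it had 30.5 CPM in the mutant library, 24.8 CPM in wild type, and 19.1 and 40.4 CPM in the shared libraries. At stage 8 wild type held 20.2, 29.8 and 28.6 CPM and the mutant 12.4, 0 and 18.1 CPM. Every library of stages 6 and 7 was thus above every stage 5 library, whereas mutant stage 8 replicate 2 was back at 0. Against a floor of 3 counts over the 6 stage 5 libraries (0.0429 CPM), its mean was at least 350-fold higher at stage 6, at least 669-fold higher at stage 7 and at least 425-fold higher at stage 8.

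OsIR64_01g0008190 had the second highest rise, 22.2. Its stage 5 libraries held 0, 1.23 and 0.522 CPM in the mutant and 0, 4.25 and 1.73 CPM in wild type. At stage 6 it stood at 63.6 and 43.4 CPM in the mutant, 54.8 and 54.5 CPM in wild type and 41.0 CPM in the shared library, with no overlap with stage 5. At stage 8 mutant replicate 2 again stood apart, with 1.66 CPM beside 39.9 and 38.0 CPM in the other mutant libraries and 38.5 to 70.2 CPM in wild type.

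OsIR64_03g0006980 was the most abundant of the genes and flatter than the median gene, with means of 626, 726 and 627 CPM at stages 6, 7 and 8 (ratio 1.16). At stage 5 it was already at 261, 224 and 243 CPM in the mutant and 345, 241 and 374 CPM in wild type. OsIR64_07g0025860 came second in abundance and was humped, at 107, 246, 453 and 268 CPM over the 4 stages. The rise was 2.22 for the first and 2.29 for the second, both below the median rise.

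**Figure D3:**
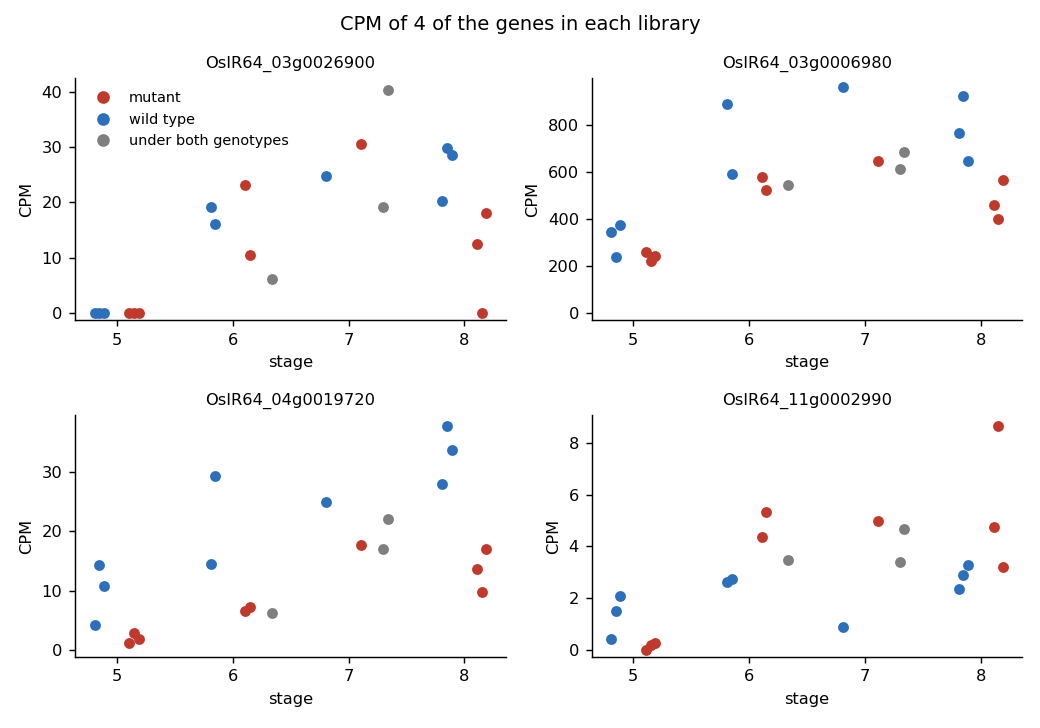
CPM of 4 of the genes in every library (linear axes from 0), by stage and coloured by genotype, with replicates set side by side. OsIR64_03g0026900 is at 0 in all 6 stage 5 libraries and in mutant stage 8 replicate 2. OsIR64_04g0019720 has every mutant library below the wild-type libraries of its stage.

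Fitted within each genotype, the stage 5 to 6 step was called higher (edgeR quasi-likelihood test, Benjamini-Hochberg adjusted p under 0.05 over all 25483 genes tested) for 136 of the 197 genes in the mutant, beside 5.18% of all genes, and for 78 in wild type, beside 2.84%. No gene was called lower. The median log2 fold change was 1.74 in the mutant and 1.52 in wild type. Calls were shared by 73 genes and missing in both genotypes for 56, since a gene could enter on its pooled mean without passing in either. The rule used this contrast, so nothing is read from these counts. Every stage 6 library lay above every stage 5 library of its genotype for 194 genes in the mutant (26.0% of all genes) and 173 in wild type (15.3%), values on which the rule also drew.

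Steps inside the band were called for at most 22 genes. From stage 6 to 7, 5 genes were called higher in the mutant (2.51% of all genes) and 10 in wild type (5.85%). From stage 7 to 8, 15 were called lower in the mutant (6.43% of all genes) and 0 in wild type (0.235%). In wild type, 15 had an unadjusted edgeR p under 0.05 for this step (7.61%, against 10.2% of all genes). Of these, 14 were lower, and no other tool was run. Between stages 6 and 8, wild type had 21 genes called higher (14.5% of all genes) and 1 called lower (15.3%), and the mutant had 5 higher (14.1%) and 2 lower (13.4%). The rule bounds these steps, and stage 7 had 1 library per genotype, whose spread was borrowed from the other groups.

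Some libraries bore the pattern less than others. In mutant stage 8 replicate 2, 119 of the 197 genes (60.4%) were at least 2 times the stage 5 mean (0.5 CPM added to both), against 77.2% and 91.4% in the other mutant stage 8 libraries and 89.3% to 95.4% in wild type. It had 6 genes at 0, and no other library of stages 7 and 8 had any. Those 6 include OsIR64_03g0026900, and OsIR64_01g0028990, which stood at 1.18, 0 and 6.81 CPM in the mutant and 12.7, 18.9 and 15.4 CPM in wild type at stage 8 and was singled out after its values were seen. At stage 6, 64.0% of the genes reached 2 times the stage 5 mean in wild-type replicate 1 and 70.1% in the shared library, against 82.2% to 89.3% in the other 3. Over all later libraries, 104 genes had every value above every stage 5 value (3.54% of all genes), which again describes what was selected.

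The rule was also applied to 1 genotype at a time, and the fitted step was then read in the other genotype. The fold changes thus come from libraries not used for the choice. The calls do so only in part, since their spread was estimated over all 18 libraries, those of the choosing genotype included. Applied to the 9 mutant libraries, the rule was met by 259 genes, of which the 200 with the highest rise were taken. In wild type, 198 of these 200 had a higher fitted level at stage 6 than at stage 5, with a median log2 fold change of 1.39 (quartiles 0.98 and 1.81). The step was called higher for 61 (30.5%), against 2.84% of all genes, and lower for 0. Chosen in wild type, where 205 genes met the rule and 200 were taken, all 200 had a higher fitted level at stage 6 in the mutant, with a median of 1.78. The step was called for 109 of them (54.5%), against 5.18% of all genes. For these lists, the fitted increase from stage 5 to 6 therefore recurred in libraries of the other genotype that had no part in choosing the genes. Of the 200 genes in each list, only 95 were among the genes selected on both genotypes. The result thus covers the lists and was not obtained for that selection as a whole. The number called depended on single libraries, and was 25 in place of 61 without wild-type stage 6 replicate 2 (0.919% of all genes in that fit), and 37 when wild-type stage 5 replicate 1 was left out (1.37%). In the mutant it was 52 in place of 109 without mutant stage 6 replicate 2 (2.01%). Leaving out mutant stage 6 replicate 1 gave 56 (2.18%), and leaving out either replicate 2 or replicate 3 of mutant stage 5 gave 59 (2.35% and 2.37%). Calls over all genes fell in number in these fits as well. Fitted on only the libraries compared, the calls numbered 31 in wild type (1.81% of all genes) and 180 in the mutant (20.2%).

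**Figure D4:**
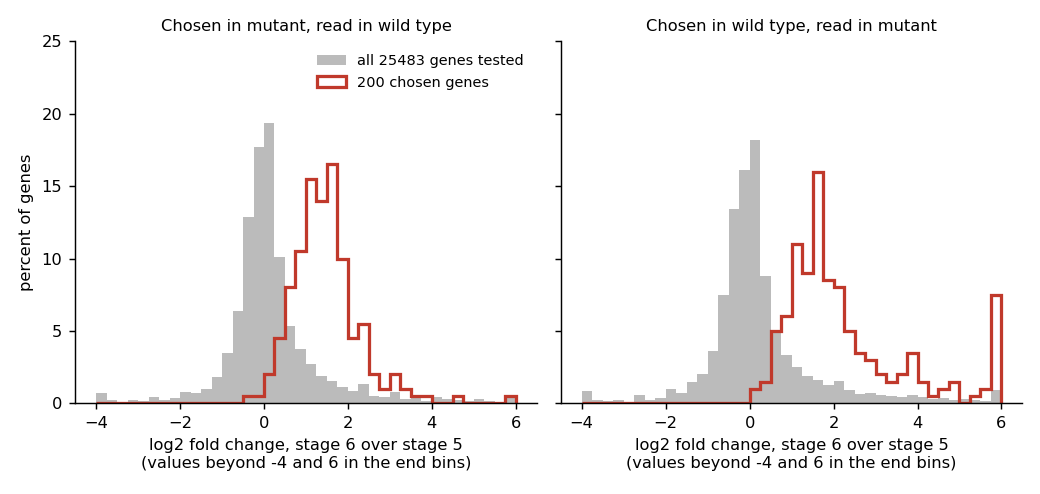
Distribution of the fitted log2 fold change from stage 5 to stage 6, as percent of genes, for all 25483 genes tested (grey) and for 200 genes chosen in the other genotype (red outline). The chosen genes centre at 1.39 in wild type and at 1.78 in the mutant, to the right of all genes, whose median is 0.

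The flat later course recurred less. Of the 200 genes chosen in the mutant, 87 (43.5%) had wild-type means within the 2-fold band, a smaller share than the 58.8% of all genes tested. Of those chosen in wild type, 87 (43.5%) did so in the mutant, beside 54.3% of all genes. A rise of at least 2 was found in the other genotype for 58.5% and 72.0% of the chosen genes, against 4.65% and 5.85% of all. The whole rule was met in the other genotype by 50 genes (25.0%) and 59 genes (29.5%), against 0.804% and 1.02% of all. These shares are descriptions. The stage 7 value of each genotype rests on 1 library, with no replicate.

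Mutant and wild type were then compared over the 197 genes at each stage. The rule used means over both genotypes and did not select on this contrast directly. Those means drew on the same libraries, however, so a gene could pass through its level in 1 genotype. The contrast is therefore not fully independent of the rule. At stage 5 the mutant had the lower fitted level for 151 of the 197 genes (76.6%), against 48.7% of all genes tested. The median log2 fold change was -0.33, against 0 over all genes. At stage 8 it was lower for 157 (79.7%, against 48.9%), with a median of -0.34 against 0.00. In between, at stage 6, 107 genes were lower with a median of -0.05, and at stage 7, with 1 library per genotype, 106 were lower with a median of -0.04. Genes are not independent replicates, and the library medians varied within groups. At stage 5 they were 3.35 ± 0.81 CPM in the mutant and 4.62 ± 1.10 CPM in wild type (SD, n = 3 each). At stage 8 they were 14.4 ± 3.56 CPM and 17.8 ± 1.51 CPM (SD, n = 3 each). The genotypes overlapped at both stages. Mutant replicate 1 (4.27 CPM) lay above wild-type replicate 1 (3.55 CPM) at stage 5. Mutant replicate 3 (17.4 CPM) lay above wild-type replicate 1 (16.2 CPM) at stage 8.

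Gene by gene these differences did not pass the threshold. In edgeR, 0 of the 197 were called at stage 5 (0% of all genes), stage 6 (0%), stage 7 (0.00392%) and stage 8 (0.00785%). The unadjusted p was under 0.05 for 23 genes at stage 5 (11.7%, against 4.42% of all genes) and 39 at stage 8 (19.8%, against 14.0%), of which 36 were lower in the mutant. It was under 0.05 for 6 at stage 6 (3.05%, against 2.96%) and 11 at stage 7 (5.58%, against 7.39%), near or below the share of all genes. DESeq2 called 1 of the 197 at stage 5 (0.0746% of all genes), 0 at stage 6 (0.0235%) and 1 at stage 7 (0.271%). At stage 8 it called 10 (5.08%, against 2.15% of all genes), all lower in the mutant. With mutant stage 8 replicate 3 left out, edgeR called 26 at stage 8, 25 lower and 1 higher, or 13.2% against 7.93% of all genes in that fit. At stage 5 it called 2 once wild-type replicate 1 was left out (1.02%, against 0.0432% of all genes).

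The libraries themselves overlapped in part. At stage 5 the summed level was 2715, 2290 and 2316 CPM in the mutant and 2499, 3382 and 3098 CPM in wild type, so wild-type replicate 1 lay among the mutant libraries. At stage 8 it was 7679, 6418 and 8465 CPM in the mutant and 8666, 9734 and 8953 CPM in wild type, with no overlap (7521 ± 1033 against 9118 ± 553, SD, n = 3 each). At stage 6 the mutant had 7305 and 7153 CPM, inside the wild-type values of 6496 and 8172 CPM, and the shared library had 6438 CPM. At stage 7 the mutant had 10551 CPM, wild type 11450 CPM and the shared libraries 10317 and 10713 CPM. With the lowest stage 8 library, mutant replicate 2, left out, the median log2 difference there was -0.23 and 137 genes were lower. With the highest stage 5 library, wild-type replicate 2, left out, the median there was -0.17 and 131 genes were lower.

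For single genes, all stage 5 libraries of the mutant lay below all of wild type in 22 of the 197, against 6.31% of all genes, and above in 3, against 8.15%. At stage 8 the corresponding numbers were 31 (5.70% of all genes) and 10 (8.73%). At stage 6, with 2 libraries a side, 18 genes were lower without overlap (11.4% of all genes) and 41 higher (20.7%). The lower side was thus the larger at stages 5 and 8 and the smaller at stage 6, where all genes had the same imbalance. Both at stage 5 and at stage 8, 124 genes (62.9%) had a lower fitted level in the mutant and 13 a higher one, while 26.7% of all genes were lower at both.

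Other genes with a higher stage 6 level had a similar shift. A further 1097 genes had a stage 6 mean at least 2 times the stage 5 mean (same added value and a stage 6 value of at least 3) but left the band later or missed another condition. Of these, 77.4% were lower in the mutant at stage 5 and 78.1% at stage 8, with medians of -0.40 and -0.52, and 51.2% and 51.8% were lower at stages 6 and 7. Their median level per library moved with that of the 197 genes: at stage 8 it was lowest in mutant replicate 2, at 7.99 CPM against 13.9 and 18.6 CPM in the other mutant libraries and at least 16.9 CPM in wild type. At stage 5 it was at most 2.60 CPM in the mutant and 2.16, 3.58 and 3.28 CPM in wild type. The part that single libraries play in the genotype difference was not tested beyond leaving each out, and the difference between the 197 genes and the 1097 was not tested.

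**Figure D5:**
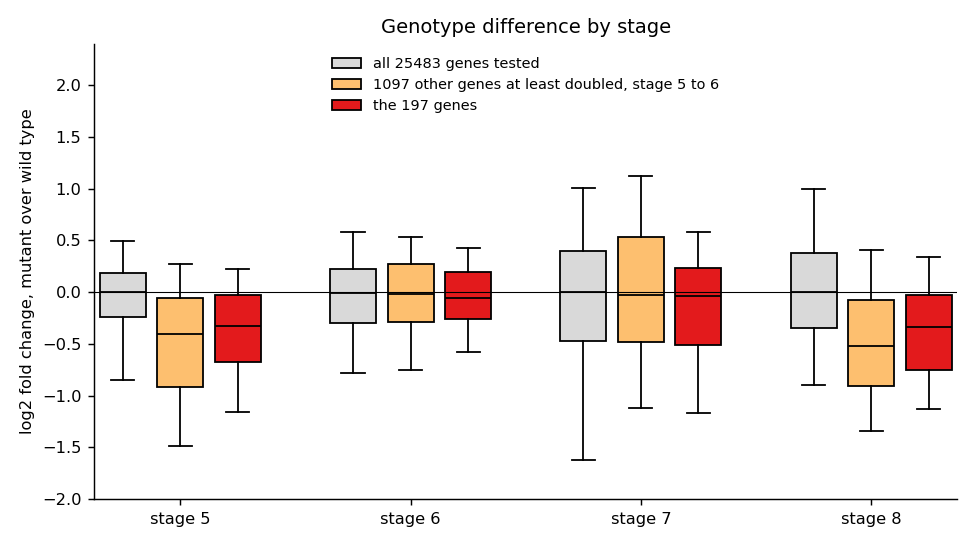
Fitted log2 fold change of mutant over wild type at each stage for all 25483 genes tested, for 1097 other genes with a stage 6 mean at least 2 times the stage 5 mean, and for the 197 genes (box, quartiles with the median; whiskers, 10th and 90th percentile). At stages 5 and 8 both sets of increasing genes lie below 0, with medians of -0.33 and -0.34 for the 197, and at stages 6 and 7 they centre near 0.

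By starting level, the 22 genes under 1 CPM at stage 5 had a median log2 difference of -0.79 there and -0.61 at stage 8. The 119 genes from 1 to 10 CPM had -0.41 and -0.34, and the 56 genes at 10 CPM or more had -0.18 and -0.34. At stage 5 the fitted difference was thus larger in size for the scarcer genes, whose counts are few and whose folds are less precise.

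Averaged over the 4 stages, 1 of the 197 genes was called in edgeR (0.0549% of all genes), and it was lower in the mutant. OsIR64_04g0019720 had 1.09, 2.90 and 1.74 CPM in the mutant at stage 5 and 4.15, 14.3 and 10.7 CPM in wild type. At stage 6 it had 6.62 and 7.23 CPM against 14.5 and 29.3 CPM, at stage 7 17.7 CPM against 25.0 CPM, and at stage 8 13.6, 9.74 and 17.0 CPM against 28.0, 37.8 and 33.8 CPM. The genotypes did not overlap at stages 5, 6 and 8, and stage 7 had 1 library of each. The shared libraries, at 6.29 CPM for stage 6 and 17.0 and 22.2 CPM for stage 7, lay below the wild-type values of their stages. The gene was named for its call on these same values, so the separation adds no support. Its log2 difference was -1.50, with an SE of 0.26 and an edgeR adjusted p = 0.045. When single libraries were left out in turn, 12 of the 16 resulting edgeR fits no longer called it (adjusted p between 0.0058 and 0.15). The 4 that did were those lacking mutant stage 5 replicate 2, mutant stage 8 replicate 3, or replicate 1 of wild type at stage 5 or stage 6. Of the 197 genes, edgeR called 7 when mutant stage 8 replicate 3 was absent (3.55%, against 1.91% of all genes) and 3 when wild-type stage 6 replicate 1 was (1.52%, against 0.208%). DESeq2 called 5 (2.54%, against 1.42%). All of these were lower in the mutant.

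The gene with the most negative averaged difference among those with at least 3 CPM in both genotypes was OsIR64_01g0033920. At stage 8 it had 5.16, 1.25 and 9.31 CPM in the mutant and 12.0, 23.9 and 11.6 CPM in wild type, and at stage 7 1.51 CPM against 25.5 CPM. The shared stage 7 libraries had 4.72 and 3.66 CPM. Its log2 difference of -2.15 (SE 0.57) was not called (edgeR adjusted p = 0.19), although DESeq2 called it (adjusted p = 0.0072). At the other end, OsIR64_02g0024220 had 0.63 (SE 0.43, edgeR adjusted p = 0.62) and OsIR64_06g0024120 had 0.61 (SE 0.36, edgeR adjusted p = 0.55), and neither was called.

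The most abundant gene, OsIR64_03g0006980, was at 476 ± 85.3 CPM (SD, n = 3) in the mutant at stage 8 against 779 ± 138 CPM (SD, n = 3) in wild type, without overlap. Its averaged log2 difference was -0.58 (SE 0.13, edgeR adjusted p = 0.13). DESeq2 (adjusted p = 0.0058) called it, and so did edgeR without mutant stage 8 replicate 3 (adjusted p = 0.025). OsIR64_07g0025860 had 215, 129 and 246 CPM in the mutant at stage 8 and 341, 331 and 345 CPM in wild type, also without overlap. Its stage 8 log2 difference of -0.89 (SE 0.20) was not called (edgeR adjusted p = 0.11), and its averaged difference was -0.25 (SE 0.13, edgeR adjusted p = 0.48). At stage 6 it had 253 and 252 CPM against 192 and 278 CPM, which overlap.

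The size of the stage 5 to 6 step was compared between the genotypes directly. The fitted step was larger in the mutant for 140 of the 197 genes, with a median difference of 0.27 on the log2 scale against -0.01 over all genes. In edgeR 0 of the 197 were called (0% of all genes), 9 had an unadjusted p under 0.05 (4.57%, against 1.46% of all genes), all with the larger step in the mutant, and DESeq2 called 0. The other 1097 genes had a median difference of 0.39. By construction the step difference is the stage 6 genotype difference minus that of stage 5. A test of any genotype by stage term called 0 of the 197 in edgeR (0% of all genes), with 12 at an unadjusted p under 0.05 (6.09%, against 5.14% of all genes), and no other tool was run for it. The larger differences at stages 5 and 8 are therefore not shown to differ from those at stages 6 and 7.

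The largest step difference belonged to OsIR64_11g0002990, with 0, 0.175 and 0.261 CPM in the mutant and 0.432, 1.5 and 2.07 CPM in wild type at stage 5. At stage 6 it had 4.35 and 5.32 CPM in the mutant against 2.61 and 2.75 CPM in wild type. The order of the genotypes was thus opposite at the 2 stages, without overlap at either. The gene was named for its step difference on these same values, so this order adds no support. The difference was 3.90 on the log2 scale (SE 1.12, unadjusted p = 0.0028, edgeR adjusted p = 1), on 5 counts in all at stage 5 in the mutant. OsIR64_10g0018760 came second, with 0.419, 0.351 and 0.0870 CPM at stage 5 in the mutant against 0.605, 2.83 and 2.07 CPM in wild type, and overlapping values at stage 6 (difference 2.43, SE 0.99, edgeR adjusted p = 1). The smallest differences were those of OsIR64_03g0006020, at -1.46 (SE 2.87), and OsIR64_02g0024220, at -1.28 (SE 1.10), both with an edgeR adjusted p = 1. OsIR64_03g0006020 stood at 0 and 35.7 CPM in the 2 wild-type stage 6 libraries, and its value changed sign without the second (9.39).

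The spread between replicates was wider for these genes than over all genes at stage 5. The median SD of log2 CPM within a group was 0.37 in the mutant and 0.53 in wild type at stage 5, against 0.17 and 0.27 over all genes tested. At stage 8 it was 0.54 in the mutant and 0.31 in wild type, against 0.50 and 0.32. The median count of the 197 genes was 32 to 69 per library at stage 5, against 126 or more in the libraries of later stages.

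By identifier the genes were spread over all 12 numbered groups, which in this naming carry the digits before the letter g. The number 3 group held 29 of them (14.7%, against 12.2% of all genes with a count), number 4 held 23 (11.7%, against 8.63%), and numbers 11 and 12 held 8 each (4.06%, against 6.57% and 5.79%). Only 1 pair had neighbouring identifiers, OsIR64_07g0008370 and OsIR64_07g0008380, with later means of 6.24 and 38.8 CPM. Reads that near-identical copies share could be divided between such neighbours in a way the sources do not state.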

How the data were processed

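RNA sequencing counts of 24 columns (8 groups) were used. The values are whole-number counts per gene as deposited by the authors; STAR alignment to an IR64 genome and HTSeq-count over its high-confidence genes are stated in the design text. The submitters' processing notes list Trimmomatic 0.39 and kallisto. Neither the strand setting nor the treatment of multiply mapped reads is stated there, which leaves near-identical, overlapping and antisense genes uncertain.

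CPM used column totals. Counts of the 18 libraries of resolved genotype were tested in R 4.3.3 with the robust quasi-likelihood F-test of edgeR 4.0.16 (TMM factors, filterByExpr, 25483 genes, 8 groups, 10 residual degrees of freedom), with Benjamini-Hochberg adjustment over all genes. Standard errors come from the fold change and its F statistic. The procedure was checked on simulated counts. Alternatives were DESeq2 1.42.0, RLE factors, a replicate block, no filter, all 24 columns, only the libraries of the comparison, and leaving out each library. Other forms of the selection rule were also applied.

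The genes, lists and tests were chosen with earlier results of these data known. Named genes are the extremes of the rise, of the level, of the averaged genotype difference (at least 3 CPM in both genotypes) and of the step difference, the genes at the edge of the rule, and any gene called between genotypes. Each p-value sets a difference against the spread between these samples, estimated over the groups of the fit with information shared across genes. A fold against 0 uses a floor of 3 counts over the group, which covers counting error only.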

Additional observations from a re-analysis of the deposited data

How the results depend on the processing

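With another form of the rule, 142 to 173 of the 197 genes were kept (TMM-scaled CPM, another added value, a floor of 5, or the 18 libraries), 151 to 190 without 1 library, and 54 with a band under 1.5. No genotype alternative turned the median log2 difference at stage 5 (-0.44 to -0.17), stage 7 (-0.08 to -0.03) or stage 8 (-0.43 to -0.23). At stage 7 no alternative could leave out a library, as each genotype had 1, so that narrow range covers settings of the fit only. At stage 6 it ranged from -0.14 to 0.20, the latter without wild-type replicate 2. In fits without 1 library, genes called between genotypes numbered 0 to 2 at stage 5 and 0 to 26 at stage 8. Averaged over stages they numbered 0 to 7. In the fits that gave 2, 26 and 7, the calls over all genes were 0.0432%, 7.93% and 1.91%. DESeq2 gave 1 at stage 5, 1 at stage 7, 10 at stage 8 and 5 averaged (19, 69, 547 and 363 over all genes). All 24 columns gave 4 at stage 8 (133 over all genes). That fit entered the identical columns under both genotypes as if they were separate libraries, so its calls do not rest on independent replicates alone. Genes chosen in the mutant and called in wild type numbered 25 to 64 without 1 library, 94 in DESeq2, 31 with only the libraries compared and 100 with all 24 columns, beside 0.919% to 2.96%, 5.11%, 1.81% and 6.09% of all genes. Those chosen in wild type and called in the mutant numbered 52 to 80 without 1 library and 180 with only the libraries compared, beside 2.01% to 3.67% and 20.2% of all genes. The cause of these moves was not tested. OsIR64_03g0006020 changed sign without wild-type stage 6 replicate 2: over fits without 1 library its averaged difference ran from -3.43 to 0.62 and its step difference from -2.46 to 9.39. Its step difference was 0.44 with the replicate block.

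Replicate numbers were not taken to pair the samples: deviations of same-numbered libraries of the 2 genotypes correlated at 0.02 to 0.08 across genes. Between stages 5 and 6, same-numbered libraries correlated at 0.26 and 0.32 in wild type and at 0.01 and 0.02 in the mutant, over 2 pairs each. With the replicate block 1 gene stayed called averaged over stages (9 over all genes). Genes chosen in the other genotype and called numbered 54 in wild type and 100 in the mutant (679 and 1421 over all genes, either direction). No count thus moved past 1.5 times. Among named genes, the step call of OsIR64_03g0026900 in the mutant was lost (edgeR adjusted p = 0.083) and that of OsIR64_03g0003580 was gained (edgeR adjusted p = 0.038). No fit of stage 7 alone or without a stage 7 library could give its genotype difference. Depth limits the scarcest genes, with 22 under 1 CPM at stage 5.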
